A study of Mus musculus with 16 samples.

Results

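The 36 genes described here are type I interferon response genes, chosen by symbol from those known to be induced by interferon in mice, and every one had a single row among the 39179 genes of the deposited count table. They were followed in poly(A) RNA of B cells from the spleens of NOD.LT mice, a line of non-obese diabetic mice, in which the immune system attacks the insulin-producing islets. At 15 weeks of age, after 5 weeks on the diet, each mouse belonged to 1 of 4 diets: HAMSA, a diet with high-amylose maize starch that carries acetate, HAMSB, in which that starch carries butyrate, HAMS, with the plain starch, or NP, the diet used here as the reference, which the submitters' protocol names Gordons. Each diet had 4 libraries, called here by the diet and the number in the labels. The cells came from a magnetic negative selection, so non-B cells that escaped the antibodies remain in the preparations. The labels count 4 samples per diet but also speak of triplicates, and they do not say which animals the numbers stand for, so p-values measure the spread between these libraries.

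Interferons alpha and beta bind a receptor made of Ifnar1 and Ifnar2, and the kinases Jak1 and Tyk2 then activate transcription factors, among them Stat2. Stat2 joins Irf9 in a complex that binds a short DNA element, the interferon-stimulated response element, and turns on antiviral effectors together with sensors and brakes of the pathway itself. In autoimmune disease the joint level of these genes is known as an interferon signature. The 36 members were read in that order: the transcription factors, the sensors of foreign RNA and DNA, the ISG15 system, and then the effectors.

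The element to which the complex of Stat2 and Irf9 binds was looked for first, because it is the known binding site in the DNA of such genes. RefSeq promoters of mouse build GRCm38.p6 were available for 26 of the 36 genes, and the core of the element, GAAA, any 2 bases and GAAA again (TTTC, any 2 bases and TTTC on the other strand), was the 1 motif sought, on both strands and in the 250 bases before the start. It occurred in 9 of the 26 genes, or 34.6%, against 3.46% of the 27025 genes of the promoter table. The stretches below are printed on the strand of the gene, with the match nearest the start in capitals. Matches that overlap were counted separately. The 250 bases of Isg15 held 3 matches and those of Oas1a and Ifit1 2 each. A further match inside a printed stretch is in lower case, apart from bases that it shares with the match in capitals. Stat2 is shown because it passed the test between diets. Rsad2, Oas1a and Oas3 are shown because they had some of the largest peaks in 1 library. Isg15 and Ifit1 were added as textbook targets of interferon.
Stat2: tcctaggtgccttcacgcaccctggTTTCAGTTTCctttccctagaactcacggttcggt
Rsad2: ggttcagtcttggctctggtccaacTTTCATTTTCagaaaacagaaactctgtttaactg
Oas1a: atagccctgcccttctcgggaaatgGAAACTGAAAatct
Oas3: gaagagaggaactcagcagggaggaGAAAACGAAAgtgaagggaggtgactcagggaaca
Isg15: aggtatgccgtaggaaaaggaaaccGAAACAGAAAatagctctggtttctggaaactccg
Ifit1: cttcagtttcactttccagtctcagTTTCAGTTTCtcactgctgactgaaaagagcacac
The stretch of Stat2 lies at chr10:128270251-128270310 (+ strand) and that of Rsad2 at chr12:26456538-26456597 (- strand). Those of Oas1a and Oas3 lie at chr5:120907526-120907564 (- strand) and chr5:120777700-120777759 (- strand). Those of Isg15 and Ifit1 lie at chr4:156200850-156200909 (- strand) and chr19:34640779-34640838 (+ strand). In Oas1a the core ended 4 bases before the RefSeq start, so its stretch is shorter, and in Stat2 it ended 212 bases before it. The bases after that start opened an annotated transcript in 20 of 32 member promoter sequences, but not in Oas1a or Stat2. Their distances hold for the RefSeq start alone, and the gene coordinates of Stat2 given below begin at another base. Trim25, the other member that passed the test between diets, had no match in its window, and a missing match says only that these letters are not in these bases. The other members with the core were Ifit3, Bst2 and Trim30a.

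Levels are given as CPM, counts per 1000000 reads of the library total after scaling by the trimmed mean of M values. Within a diet, values follow the label numbers, which are 1, 2, 3 and 6 in HAMSA, 1, 2, 5 and 6 in HAMSB, 1, 4, 5 and 6 in HAMS and 1, 3, 4 and 5 in NP. Column totals were 15053965 to 30723337 counts in HAMSA and 31707731 to 46206200 in the other diets, so HAMSA values carry the largest counting error. Per kilobase of exon and over 16 libraries, Ifi27l2a had the highest mean level with 90.6 CPM per kb, ahead of Sp100 with 71.3, Trim25 with 53.6, Ifi35 with 48.8 and Trim30a with 33.6. At the low end stood Ifi44 with 0.05, Ifih1 with 0.43 and Oas3 with 0.51 CPM per kb. Ifi44 failed the filter on low counts, so 35 members were tested among 15021 genes. Each of the 10 B cell markers was present, and their summed level was 14009 to 15664 CPM in HAMSA, 14067 to 16037 in HAMSB, 12993 to 15375 in HAMS and 14095 to 16854 in NP.

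A pair of libraries, HAMSB 2 and HAMS 1, held the highest values of most members. HAMSB 2 was the highest of all 16 libraries for 29 of the 35 tested members, against 6.28% of all genes tested. Among the other 15 libraries HAMS 1 was the highest for 19 members, against 2.96% of all genes. HAMSB 2 exceeded the mean of the other 3 HAMSB libraries over 2-fold in 22 members, where 6.28% of all genes did, and HAMS 1 exceeded the mean of the other HAMS libraries over 2-fold in 11, where 3.72% did. All 11 were among the 22. As a score, the mean over the tested members of log2 CPM minus the gene's own mean was 1.23 in HAMSB 2, 0.54 in HAMS 1 and 0.24 in HAMSA 2, and between -0.37 and 0.03 in the other 13 libraries.

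**Figure D1:**
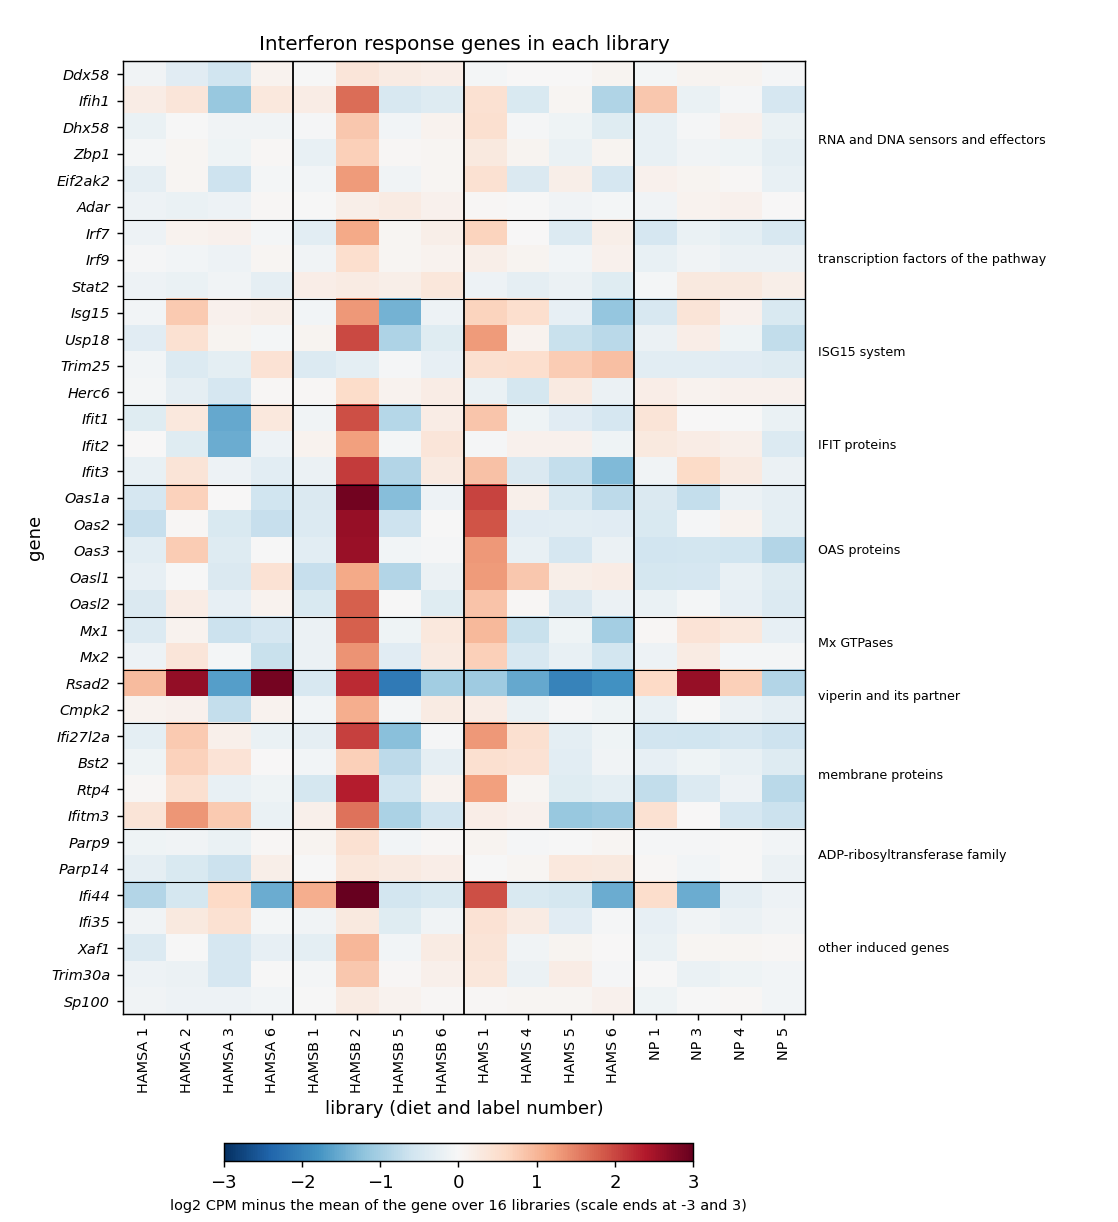
Level of each of the 36 genes (rows, grouped by role) in each of the 16 libraries (columns, grouped by diet), as log2 CPM minus the mean of the gene over all libraries. The column of HAMSB 2 is red in most rows and that of HAMS 1 in many, while Rsad2, Stat2 and Trim25 follow patterns of their own.

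The spread of the members was wider in the diets of these 2 libraries than in HAMSA and NP. The median coefficient of variation of the members was 24.4% in HAMSA, 47.8% in HAMSB, 30.9% in HAMS and 10.3% in NP, against 19.7%, 15.4%, 18.5% and 10.6% over all genes tested. It was 17% in HAMSB without HAMSB 2 and 14.1% in HAMS without HAMS 1. NP libraries were the most alike for the interferon genes, as they were over all genes.

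The libraries that stood out did so to a different degree in each role. In HAMSB 2 the score was 2.21 over the 5 OAS genes, 1.76 over the 3 IFIT genes, 1.68 over the 4 membrane proteins, 1.66 over Rsad2 and its neighbour Cmpk2, 1.58 over the 2 Mx genes, 0.88 over the 4 genes of the ISG15 system, 0.84 over the 6 sensors and effectors, 0.63 over the 3 transcription factors, 0.58 over the 4 other induced genes tested and 0.40 over the 2 ADP-ribosyltransferases. In HAMS 1 it was 1.47 for OAS, 0.84 for Mx, 0.80 for the membrane proteins, 0.56 for IFIT and for the ISG15 system, 0.30 for the other induced genes, 0.27 for the sensors and effectors, 0.23 for the transcription factors, 0.03 for the ADP-ribosyltransferases and -0.43 for Rsad2 and Cmpk2. Relative to the other 3 HAMSB libraries, HAMSB 2 was 11.2 times as high for Oas1a, 10.2 for Rsad2, 7.80 for Oas2, 6.73 for Oas3, 6.38 for Rtp4, 5.53 for Ifi27l2a and 5.12 for Usp18. The ratio was 1.0 for Stat2, 0.954 for Trim25 and 1.04 for Adar, members for which HAMSB 2 lay near the rest of its diet. Among tested members with a promoter in the table, the median of this ratio was 4.45 over the 9 genes with the core described above and 2.05 over the 16 without it, with ranges of 1.0 to 11.2 and 0.954 to 4.17 that overlap. Oas2, Rtp4, Ifi27l2a and Usp18, named above for high ratios, had no promoter there and are in neither group. The part of the core in these ratios was not tested.

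**Figure D2:**
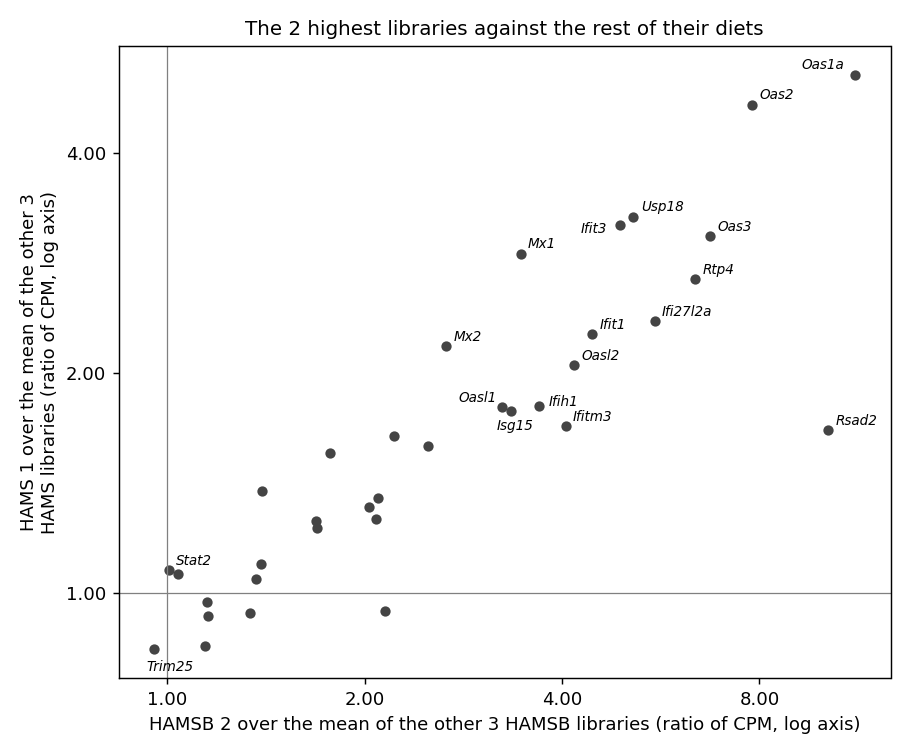
For each tested member, the CPM of HAMSB 2 over the mean of the other 3 HAMSB libraries (horizontal, log axis) and the CPM of HAMS 1 over the mean of the other 3 HAMS libraries (vertical, log axis). Oas1a lies highest on both axes at 11.2 and 5.13, Oas2 is at 7.80 and 4.66, Stat2 and Trim25 lie near 1 on both, and Rsad2 is high in HAMSB 2 at 10.2 but 1.67 in HAMS 1.

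HAMSB 2 also had the highest levels of T and NK cell markers. The summed level of the 13 T cell markers was 261, 385, 183 and 115 CPM in the HAMSB libraries in label order, with HAMSB 2 the second value, and that of the 10 NK cell markers was 31.9, 75.2, 15.4 and 15 CPM. T cell markers summed to 130.4 to 318 CPM in HAMSA, 77.5 to 201 in HAMS and 82.2 to 132 in NP, and NK cell markers to 17.2 to 43.1, 13.9 to 23.1 and 13.6 to 22.6 in HAMSA, HAMS and NP. HAMSB 2 was thus the highest of the 16 libraries for both lists, and no marker of any list was at 0 in every library. The 14 macrophage and monocyte markers in the table summed to 404 CPM in HAMSB 2, against 486 in NP 1, the highest library. The 11 neutrophil markers summed to 292 CPM in HAMSB 2 and 349 in HAMSA 2, and the 11 markers of plasmacytoid dendritic cells, the specialised producers of type I interferon, to 614 in HAMSB 2 and 616 in HAMS 4. Siglech, a surface receptor of these cells, was at 15.3 CPM in HAMSB 2 and between 1.84 and 12.6 in the other libraries. Ly6d and Tcf4, which B cells also express, made up 334 and 179 CPM of the sum in HAMSB 2. Of the other markers in that list, Ccr9 at 5.86 CPM, Runx2 at 6.39, Klk1 at 3.83, Cd209d at 3.16 and Cox6a2 at 0.899 were, like Siglech, highest in HAMSB 2, and Pacsin1, Atp1b1 and Lag3 were not. The next highest library for Siglech, Ccr9 and Cd209d was HAMSB 1, at 12.6, 4.68 and 2.59 CPM, where the interferon score was among the 13 between -0.37 and 0.03. HAMS 1, the library with the next highest interferon score, had 114 CPM of T cell markers, 13.9 of NK cell and 23.5 of neutrophil markers, values inside the range of the other HAMS libraries for T cells and neutrophils and just below it for NK cells. Of the plasmacytoid dendritic cell markers, some were highest in HAMS 1 among HAMS libraries. These were Siglech at 4.61 CPM, Klk1 at 1.56, Runx2 at 1.89, Cd209d at 1.54 and Lag3 at 2.83. Ccr9, Cox6a2, Ly6d, Pacsin1, Tcf4 and Atp1b1 were not. The part of these cells in the interferon values was not tested.

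The interferons themselves were nearly absent. Of 18 interferon genes looked up, 15 had no read in any library, among them Ifnb1 and the numbered alpha interferons of that list. A count of 0 in 529412720 assigned reads allows up to 3 reads in all, 0.0057 CPM. Reads that map to several near-identical alpha interferon genes were not counted, so this limit covers uniquely mapped reads and counting error. Ifnab and Ifnk had 1 read each. Ifng, the type II interferon of T and NK cells, had 77 reads in all, of which 27 were in HAMSA 1, 12 in HAMSB 2, 7 in HAMSA 2 and 5 or fewer in each other library.

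The 2 chains of the receptor lacked the peak in HAMSB 2 seen in the effectors. Ifnar1 was at 134, 119, 110.1 and 149 CPM in HAMSA libraries, 135, 129, 186 and 161 in HAMSB, 125, 144, 152 and 181 in HAMS and 137, 150.3, 146 and 134 in NP. Ifnar2 was at 44.3, 44.4, 39.4 and 45.9 CPM in HAMSA libraries, 47.1, 47.5, 43.9 and 46.6 in HAMSB, 42.9, 45.3, 41 and 41.8 in HAMS and 43.6, 48.3, 45.8 and 44.3 in NP. Diets overlapped for both chains, and HAMSB 2 was the highest library for neither. None of the 13 receptor and signalling genes passed the test in any of the 6 comparisons. Among them the smallest p in HAMSB against HAMS was that of Tyk2, with a log2 fold change of 0.26 ± 0.11 (SE) and adjusted p = 0.32, and in HAMSA against HAMSB that of Socs1, a feedback inhibitor, with 0.67 ± 0.23 and adjusted p = 0.17 (edgeR quasi-likelihood test, Benjamini-Hochberg adjustment, as for all adjusted p below unless another tool is named). Over the 6 comparisons the smallest p was that of Socs1 in HAMSA against NP, at 5.17, 5.83, 6.66 and 4.77 CPM in HAMSA against 2.33, 4.34, 3.36 and 2.84 CPM in NP without overlap, with 0.80 ± 0.23 and adjusted p = 0.071, a comparison chosen after the values were seen.

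Stat2, the transcription activator of the interferon complex, separated diets, and HAMSB 2 lay among the other libraries of its diet. Its gene (ENSMUSG00000040033) lies at chr10:128270559-128292849 on the + strand of GRCm38. It was at 178, 172, 182 and 164 CPM in HAMSA libraries, 224, 233, 222 and 250.2 in HAMSB, 176, 163, 174 and 154 in HAMS and 188, 240.1, 241 and 221 in NP. All HAMSB libraries lay above all HAMSA and HAMS libraries, NP 1 lay between them, and the other NP libraries lay within the HAMSB range or just below it. Stat2 was higher in HAMSB than in HAMS, at a log2 fold change of 0.48 ± 0.09 (SE; 233 ± 12.7 against 167 ± 10.3 CPM, SD, n = 4 each; edgeR adjusted p = 0.0088). It was lower in HAMSA than in HAMSB, at a log2 fold change of -0.42 ± 0.09 (174 ± 7.80 against 233 ± 12.7 CPM; edgeR adjusted p = 0.038) and lower in HAMS than in NP, at a log2 fold change of -0.42 ± 0.09 (167 ± 10.3 against 223 ± 24.9 CPM; edgeR adjusted p = 0.014). HAMSA against NP gave -0.36 ± 0.09 and just missed the threshold (edgeR adjusted p = 0.056), and HAMSB against NP gave 0.06 ± 0.09 (edgeR adjusted p = 1.0). In bulk RNA, fewer cells with a transcript and less of it per cell cannot be told apart.

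The call of Stat2 between HAMSB and HAMS held when any 1 library was left out, with log2 fold changes of 0.44 to 0.51, but within numbers 1 to 4 it was 0.43 (edgeR adjusted p = 0.18) and within numbers 5 and 6 it was 0.53 (edgeR adjusted p = 0.17). The call between HAMSA and HAMSB was lost whichever of the 8 libraries was left out, with edgeR adjusted p of 0.061 to 0.15, and the call between HAMS and NP was lost without HAMS 6, NP 3 or NP 4, each at -0.38, with edgeR adjusted p of 0.060 to 0.064. Within numbers 1 to 4, HAMSA against HAMSB gave -0.35 (edgeR adjusted p = 0.29) and HAMS against NP -0.40 (edgeR adjusted p = 0.070). Within numbers 5 and 6 these comparisons gave -0.52 and -0.44, with HAMSA 6 and NP 5 the only libraries of their diets.

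Irf9, the DNA-binding subunit of the complex, and Irf7, which amplifies interferon production, did not pass the test in any comparison. Irf9 was at 130.2, 126, 119 and 138 CPM in HAMSA libraries, 124, 189, 139.8 and 144 in HAMSB, 152, 142, 127 and 147 in HAMS and 115, 125, 119 and 118 in NP. Every HAMS library lay above every NP library, at 0.25 ± 0.11 on the log2 scale (edgeR adjusted p = 0.21), and HAMSB against NP gave 0.33 ± 0.11 with HAMSB 2 the highest value (edgeR adjusted p = 0.43) and 0.19 ± 0.09 without HAMSB 2 (edgeR adjusted p = 0.78). Irf7 was at 32.8, 38.9, 39.3 and 35 CPM in HAMSA libraries, 29, 79.4, 37.7 and 40.8 in HAMSB, 57.3, 36.6, 27.4 and 40.9 in HAMS and 25.4, 31.3, 29.5 and 25.9 in NP. HAMSB 2 and HAMS 1 were the highest libraries, and every HAMSA library lay above every NP library. The mean in HAMSB was 46.7 ± 22.3 CPM (SD, n = 4) and 35.8 CPM without HAMSB 2, against 28 ± 2.85 CPM in NP, and the log2 fold change between them was 0.74 ± 0.26 (edgeR adjusted p = 0.46) and 0.35 ± 0.19 without HAMSB 2 (edgeR adjusted p = 0.85).

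**Figure D3:**
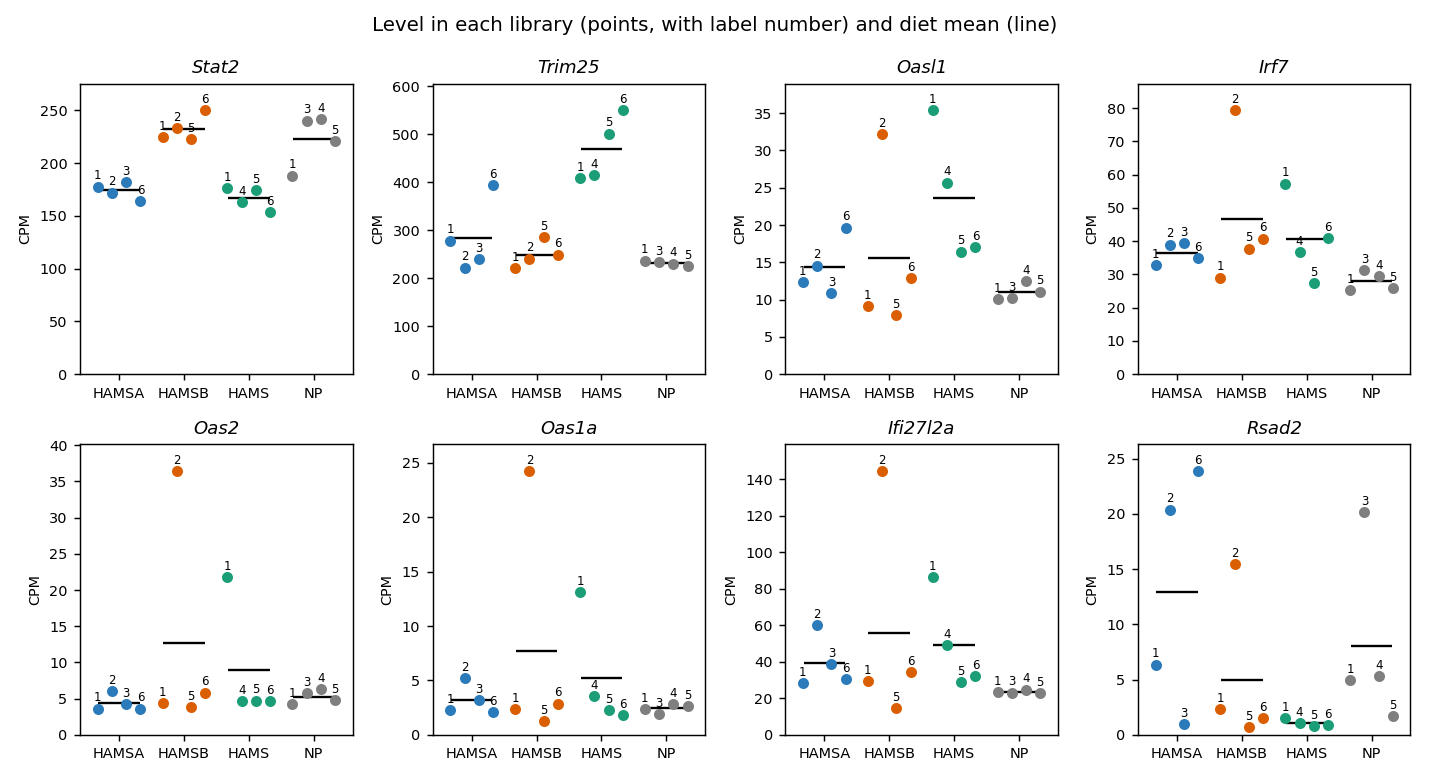
CPM of 8 members in each library (points, numbered as in the labels) with the mean of each diet (line), HAMSA, HAMSB, HAMS and NP from left to right. HAMSB lies above HAMSA and HAMS for Stat2, and HAMS above the other 3 diets for Trim25, whereas the HAMSB means of Oas2, Oas1a and Ifi27l2a rest on HAMSB 2 at 36.5, 24.3 and 145 CPM.

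The 6 sensors and effectors of foreign nucleic acid had a lower score in HAMSB 2 than the OAS and IFIT genes, and none passed the test in any comparison. Ddx58, which encodes RIG-I, was at 105, 90.3, 75.3 and 122 CPM in HAMSA libraries, 113, 145, 134 and 131 in HAMSB, 108, 115, 115 and 120.0 in HAMS and 109, 119.7, 120.0 and 110.1 in NP. HAMSA held the 3 lowest libraries and also HAMSA 6 at 122 CPM, so HAMSA and HAMSB overlapped. The log2 fold change of HAMSA against HAMSB was -0.41 ± 0.12 (edgeR adjusted p = 0.12), and without HAMSA 6 it was -0.54 (edgeR adjusted p = 0.032). Ifih1, the MDA5 sensor, was at 10.1 CPM in HAMSB 2 and 1.40 to 5.52 in the other libraries. Dhx58, their regulator LGP2, was at 43.6 CPM in HAMSB 2, 34.3 in HAMS 1 and 19.3 to 26.9 elsewhere. Eif2ak2, the kinase PKR, was at 25.7 CPM in HAMSB 2, 14.6 in HAMS 1 and 6.92 to 12.1 elsewhere. Zbp1, a sensor of Z-form nucleic acid, was at 58.6 CPM in HAMSB 2 and 28.9 to 43.6 in the other libraries, and Adar, which edits double-stranded RNA, stayed within 201 to 274 CPM everywhere.

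The ISG15 system, in which a ubiquitin-like protein is attached to targets, held Trim25, which passed the test between starch diets. Trim25, a ubiquitin ligase that acts on RIG-I and on ISG15 (ENSMUSG00000000275, chr11:88999376-89020293 on the + strand of GRCm38), was at 278, 222, 239.9 and 395 CPM in HAMSA libraries, 222, 241, 286 and 249 in HAMSB, 409.6, 414, 501 and 551 in HAMS and 237, 234, 231 and 226 in NP. All HAMS libraries lay above all libraries of the other diets, and HAMSA 6 came closest to them. Trim25 was lower in HAMSB than in HAMS, at a log2 fold change of -0.91 ± 0.15 (249 ± 27 against 469 ± 68.9 CPM, SD, n = 4 each; edgeR adjusted p = 0.0060). It was higher in HAMS than in NP, at a log2 fold change of 1.02 ± 0.16 (469 ± 68.9 against 232 ± 4.72 CPM; edgeR adjusted p = 0.0021). HAMSA against HAMS gave -0.73 ± 0.15 and did not pass with edgeR (adjusted p = 0.30), but did so without HAMSA 6, at -0.93 (edgeR adjusted p = 0.0078), and with DESeq2, at -0.73 (adjusted p = 0.0055).

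The call of Trim25 between HAMSB and HAMS held in each of 20 alternatives, with log2 fold changes of -0.99 to -0.83. The call between HAMS and NP held in 19 of 20. The other alternative was the fit within numbers 5 and 6, at 1.21, where NP 5 was the only NP library. Between these diets heat shock genes moved with Trim25. Of the 14 listed, 12 passed the test as lower in HAMSB than in HAMS, where 1.24% of all genes did. As higher in HAMS than in NP 11 passed, where 2.27% did. The 14 listed chaperone genes summed to 4004, 3441, 3052 and 6949 CPM in the HAMSA libraries in label order and 2935, 2607, 2472 and 3103 in HAMSB. They summed to 4184, 7914, 5413 and 6749 CPM in HAMS and 3751, 3158, 3560 and 3493 in NP. HAMSA 6, the HAMSA library with the most Trim25, was also the one with the most heat shock RNA. Within HAMS and HAMSB the orders differed. HAMS 4 had the most heat shock RNA in HAMS and 414 CPM of Trim25, against 551 in HAMS 6. HAMSB 5 had the least heat shock RNA in HAMSB and the most Trim25, at 286 CPM. The part of the heat shock response in the level of Trim25 was not tested.

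Isg15, Usp18 and Herc6, the rest of that system, did not pass the test in any comparison. Isg15, the modifier itself, was at 7.07, 12.8, 8.12 and 8.39 CPM in HAMSA libraries, 6.99, 18.3, 2.75 and 6.71 in HAMSB, 12, 10.6, 6.31 and 3.33 in HAMS and 5.37, 9.72, 8.17 and 5.43 in NP. Usp18, which removes ISG15 and restrains the receptor, was at 14 CPM in HAMSB 2, 8.63 in HAMS 1 and 1.82 to 4.79 in the other libraries. Both were highest in HAMSB 2, and the 4 diets overlapped. Herc6, the main ISG15 ligase of the mouse, was at 29.4, 25.5, 21.5 and 31.3 CPM in HAMSA libraries, 31.3, 44.6, 32.8 and 36 in HAMSB, 26.7, 21.4, 36.8 and 26.9 in HAMS and 35.4, 32.7, 33.3 and 33.3 in NP. Every HAMSA library lay below every NP library for Herc6, at -0.32 ± 0.16 (edgeR adjusted p = 0.21), and HAMSB against HAMS gave 0.37 ± 0.15 (edgeR adjusted p = 0.29).

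The OAS enzymes, which make oligoadenylates that activate RNase L, showed some of the largest peaks. Oas1a was at 2.25, 5.20, 3.19 and 2.10 CPM in HAMSA libraries, 2.34, 24.3, 1.29 and 2.87 in HAMSB, 13.2, 3.58, 2.28 and 1.84 in HAMS and 2.36, 1.93, 2.84 and 2.63 in NP. Oas2 was at 3.63, 6.06, 4.26 and 3.62 CPM in HAMSA libraries, 4.42, 36.5, 3.79 and 5.82 in HAMSB, 21.8, 4.66, 4.73 and 4.65 in HAMS and 4.23, 5.75, 6.33 and 4.76 in NP. Oas3 was at 2.25, 4.79, 2.13 and 2.80 CPM in HAMSA libraries, 2.24, 17.2, 2.66 and 2.74 in HAMSB, 7.04, 2.41, 1.96 and 2.49 in HAMS and 1.87, 1.90, 1.84 and 1.49 in NP. For all 3 genes HAMSB 2 was the highest and HAMS 1 the next highest library, and the other 14 libraries stayed at or below 6.33 CPM. The HAMSB means of 7.69 ± 11.1, 12.6 ± 15.9 and 6.20 ± 7.31 CPM (SD, n = 4) for Oas1a, Oas2 and Oas3 became 2.17, 4.68 and 2.55 CPM without HAMSB 2. The log2 fold change of HAMSB against HAMS was 0.56 ± 0.77, 0.49 ± 0.65 and 0.83 ± 0.58 (edgeR adjusted p = 0.80, 0.79 and 0.56), and without HAMSB 2 it was -1.27, -0.94 and -0.45 (edgeR adjusted p = 0.35, 0.40 and 0.64). Oas3 was higher in every HAMSA, HAMSB and HAMS library than in every NP library, with HAMSB against NP at 1.80 ± 0.60 (edgeR adjusted p = 0.43) and at 0.52 ± 0.39 without HAMSB 2 (edgeR adjusted p = 0.97). Reads shared with near-identical genes such as Oas1g are not counted, so the level of Oas1a is uncertain.

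Oasl1, an OAS-like protein that in mice holds back the translation of Irf7, had a pattern of its own. It was at 12.4, 14.6, 10.8 and 19.6 CPM in HAMSA libraries, 9.08, 32.2, 7.94 and 12.9 in HAMSB, 35.4, 25.7, 16.4 and 17 in HAMS and 10.03, 10.2, 12.5 and 11.1 in NP. Every HAMS library lay above every NP library, and HAMSB 2 was the HAMSB library that reached the HAMS range. HAMS against NP gave 1.11 ± 0.37 on the log2 scale (edgeR adjusted p = 0.11) and 0.84 without HAMS 1 (edgeR adjusted p = 0.25), while DESeq2 called it at 1.12 (adjusted p = 0.032). It also passed with the 2 diets alone, at 1.11 (edgeR adjusted p = 0.030), within numbers 1 to 4, at 1.49 (edgeR adjusted p = 0.039), and without HAMSB 2 and HAMS 1 together, at 0.85 (edgeR adjusted p = 0.048). Of HAMS, numbers 1 to 4 keep only HAMS 1 and HAMS 4, its highest libraries for Oasl1. In the other 16 of 20 alternatives it did not pass, among them all 8 that left out 1 library. HAMSB against HAMS gave -0.61 ± 0.37 (edgeR adjusted p = 0.49), and without HAMSB 2 it passed the test at -1.25 ± 0.27 (edgeR adjusted p = 0.037). Oasl2 was at 22.9 CPM in HAMSB 2, 11.9 in HAMS 1 and 4.75 to 7.74 in the other libraries.

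The IFIT genes, whose proteins bind foreign RNA, and the Mx GTPases, which block viral nucleocapsids, peaked in HAMSB 2 and did not pass the test in any comparison. Ifit1 was at 7.93 CPM in HAMSB 2, Ifit2 at 23.6 and Ifit3 at 31.8, and the next highest libraries were HAMS 1 for Ifit1 and Ifit3, at 3.67 and 13.7 CPM, and HAMSB 6 for Ifit2, at 12.7 CPM. Mx1 was at 35.3 CPM in HAMSB 2, 19.8 in HAMS 1 and 4.91 to 13.4 elsewhere, and Mx2 at 22.8, 14.6 and 5.59 to 11.4. Ifit1 and Ifit3 have near copies in the genome, so their levels are uncertain.

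Rsad2, which encodes viperin, an enzyme that makes a chain-terminating nucleotide, had its highest values in libraries of several diets and 1.51 CPM in HAMS 1. It was at 6.36, 20.4, 0.998 and 23.9 CPM in HAMSA libraries, 2.31, 15.4, 0.701 and 1.53 in HAMSB, 1.51, 1.08, 0.759 and 0.872 in HAMS and 4.97, 20.2, 5.33 and 1.72 in NP. HAMSA 6, HAMSA 2, NP 3 and HAMSB 2 stood far above the rest, and every HAMS library lay below every NP library. HAMSA against HAMS gave 3.60 ± 1.04 on the log2 scale (12.9 ± 11 against 1.05 ± 0.331 CPM, SD, n = 4 each; edgeR adjusted p = 0.30), with DESeq2 at 3.61 (adjusted p = 0.045). HAMS against NP gave -2.92 ± 1.02 (edgeR adjusted p = 0.12). Erythroid markers moved with it in part. The 12 erythroid markers summed to 1633, 6519.6, 592 and 6309.5 CPM in the HAMSA libraries in label order, 759, 1618, 64.7 and 58.6 in HAMSB, 94.4, 133, 42.1 and 125 in HAMS and 358, 1500.0, 208 and 88 in NP. HAMSA 1 had as much erythroid RNA as HAMSB 2 but 6.36 CPM of Rsad2. The part of erythroid cells in the level of Rsad2 was not tested.

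Cmpk2, a nucleotide kinase whose gene lies next to Rsad2 on chromosome 12, varied far less than Rsad2. Both genes were highest in HAMSB 2, HAMS 1 and NP 3 within those diets, and in HAMSA their highest libraries differed. Cmpk2 was at 19.9 CPM in HAMSB 2 and 5.66 to 10.9 in the other libraries, including 10.2 in HAMSA 2, 10.04 in HAMSA 6 and 9.18 in NP 3.

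**Figure D4:**
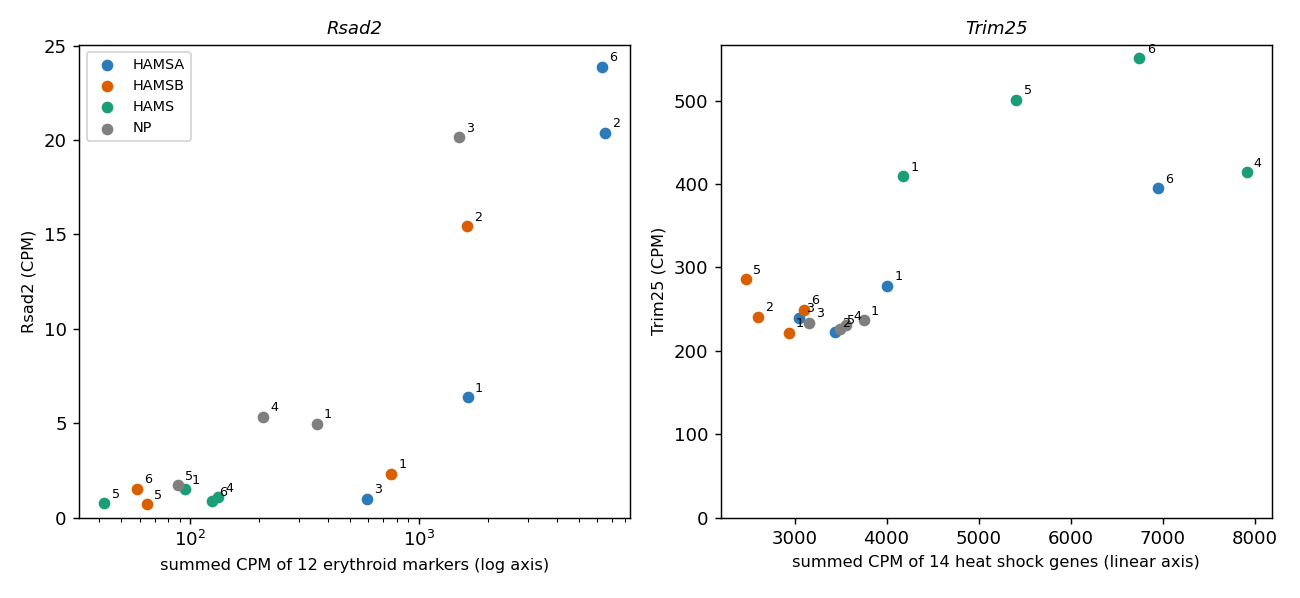
Left, CPM of Rsad2 against the summed CPM of 12 erythroid markers (log axis); right, CPM of Trim25 against the summed CPM of 14 heat shock genes. Points are the 16 libraries, colored by diet and numbered as in the labels; HAMSA 2 and HAMSA 6 are high on both axes at left, and the HAMS libraries with HAMSA 6 hold the 5 highest Trim25 values at right.

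The membrane proteins of the group followed HAMSB 2 and, in part, HAMS 1 and HAMSA 2. Ifi27l2a, a small membrane protein, was at 28.5, 60.2, 38.9 and 30.4 CPM in HAMSA libraries, 29.3, 145, 14.7 and 34.4 in HAMSB, 86.3, 49.1, 28.8 and 32 in HAMS and 23.3, 23.1, 24.8 and 22.9 in NP. NP libraries differed by less than 2 CPM, every HAMSA and HAMS library lay above them, and the HAMSB libraries lay on both sides. HAMSB against NP gave 1.25 ± 0.53 (edgeR adjusted p = 0.65) and 0.15 without HAMSB 2 (edgeR adjusted p = 1.0). Bst2, which tethers budding virus to the cell and is also a marker of plasmacytoid dendritic cells and plasma cells, was at 23.7, 41.8, 34.2 and 26.1 CPM in HAMSA libraries, 24.3, 42.4, 14.9 and 21.5 in HAMSB, 36, 34.9, 20.8 and 24.2 in HAMS and 21.7, 23.6, 22.3 and 19.8 in NP. Every HAMSA library lay above every NP library for Bst2, at 0.52 ± 0.27 (edgeR adjusted p = 0.23), a value that turned to -0.31 with a covariate for reads outside exons. Rtp4, a chaperone of membrane receptors, was at 24.7 CPM in HAMSB 2, 11.3 in HAMS 1 and 2.73 to 6.76 elsewhere, and Ifitm3, which blocks viral entry, at 21.5, 7.95 and 3.15 to 17.6. Ifi27l2a shares sequence with a near copy, so its level is uncertain.

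Parp14 and Parp9, of the ADP-ribosyltransferase family, had ratios of 1.14 and 1.37 between HAMSB 2 and the other HAMSB libraries. Parp14 was at 133, 117, 102 and 180.4 CPM in HAMSA libraries, 158, 203, 193 and 183 in HAMSB, 159, 167, 200.3 and 197 in HAMS and 163, 152, 158 and 142 in NP. HAMSA 1, 2 and 3 were the lowest HAMSA libraries and HAMSA 6 lay with the HAMSB and HAMS libraries. HAMSA against HAMSB gave -0.47 ± 0.14 (edgeR adjusted p = 0.14) and -0.65 without HAMSA 6 (edgeR adjusted p = 0.021), and HAMSA against HAMS gave -0.44 ± 0.14 (edgeR adjusted p = 0.32). Parp9 was at 89 CPM in HAMSB 2 and 55.9 to 68.5 in the other libraries.

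Among the remaining members, Sp100 varied over a narrow range and Ifi44, the rarest, was highest in HAMSB 2 and HAMS 1. Sp100, a protein of nuclear bodies, was at 501, 481, 483 and 506 CPM in HAMSA libraries, 533, 638, 578 and 551 in HAMSB, 554, 561, 561 and 587 in HAMS and 493, 533, 547 and 509 in NP. Its HAMSA libraries lay below all HAMSB and HAMS libraries, at -0.22 ± 0.08 against HAMSB (edgeR adjusted p = 0.17) and -0.20 ± 0.08 against HAMS (edgeR adjusted p = 0.38). Trim30a, a TRIM protein, was at 122, 120.3, 95 and 133 CPM in HAMSA libraries, 129, 235, 139 and 151 in HAMSB, 172, 120.2, 157 and 132 in HAMS and 135, 118, 124 and 127 in NP. It was highest in HAMSB 2 and HAMS 1, the diets overlapped, and reads shared with its copy Trim30d are not counted. Ifi35 was at 76.6, 101, 114 and 79.9 CPM in HAMSA libraries, 76.5, 102, 64.7 and 77 in HAMSB, 113, 98.5, 65.6 and 81 in HAMS and 69.98, 77.4, 73.9 and 76.9 in NP, with no diet apart from the others. Xaf1, which binds the apoptosis inhibitor XIAP, was at 40.3 CPM in HAMSB 2, 26.2 in HAMS 1 and 14.2 to 23.9 elsewhere. Ifi44 had 128 reads in HAMSB 2, 22 in HAMS 1, 12 in HAMSB 1 and 0 to 6 in the other libraries, or 2.95, 0.593 and 0.305 CPM in those 3, and was not tested.

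HAMSB against HAMS asks what the butyrate of the starch adds. Stat2 was higher and Trim25 lower in HAMSB, and no other of the 35 tested members passed, which makes 2 members called where 1.68% of all genes were, 0.433% higher and 1.24% lower. The median log2 fold change of the members was 0.37, and 31 of 35 values were above 0, against 50.9% of all genes. Without HAMSB 2 the median was -0.06 and 8 of 35 values were above 0, while Stat2 at 0.48 ± 0.10 (edgeR adjusted p = 0.027) and Trim25 at -0.89 ± 0.17 (edgeR adjusted p = 0.022) kept their calls and Oasl1 joined them. Stat2 and Trim25 were also the members whose 4 libraries did not overlap between these diets, where 7.30% of all genes did not, 3.19% higher and 4.11% lower. The median over all genes tested was between -0.0040 and 0.012 in each of the 6 comparisons.

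**Figure D5:**
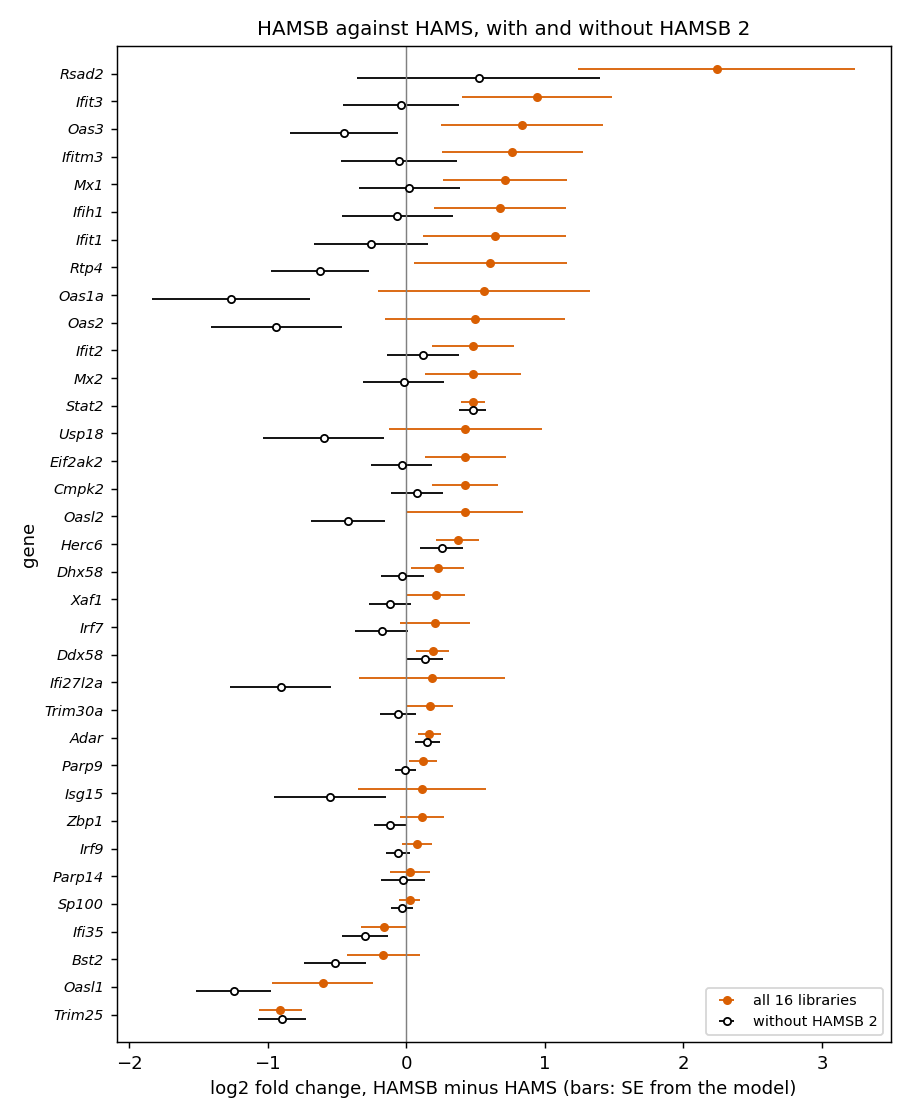
Log2 fold change of HAMSB minus HAMS for the 35 tested members, with all 16 libraries (filled) and without HAMSB 2 (open); bars are the SE from the model. Most filled points lie right of 0 and most open points left of it, whereas Stat2 stays at 0.48 and Trim25 at -0.91 and -0.89.

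HAMSA against HAMS asks the same of acetate. No member passed with edgeR, where 0.00% of all genes did. At an unadjusted p under 0.05 there were 4 of 35, or 11.4%, against 11.7% of all genes, namely Rsad2 with a higher value and Trim25, Parp14 and Sp100 with lower ones. DESeq2 called Rsad2 and Trim25, and the share of all genes called with DESeq2 is not given here. The members' median was -0.18, and 8 of 35 values were above 0. Without HAMS 1 the median was 0.07 and 21 of 35 values were above 0. Trim25 and Sp100 did not overlap between the diets, both lower in HAMSA, where 4.01% of all genes did not, 2.70% higher and 1.31% lower.

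HAMSA against HAMSB sets acetate against butyrate. Stat2 was the 1 member that passed, where 0.779% of all genes did, 0.586% higher and 0.193% lower, and its call was lost whichever library was left out, as given above. The members' median was -0.44 with 6 of 35 values above 0, and 0.02 with 18 of 35 above 0 without HAMSB 2. Unadjusted p was under 0.05 for 12 members, or 34.3%, against 19.4% of all genes. Stat2 and Sp100 did not overlap and were lower in HAMSA, where 8.81% of all genes did not, 4.65% higher and 4.16% lower.

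Against NP, the 2 acylated starches gave no called member. For HAMSA no member passed where 1.41% of all genes did (0.606% higher, 0.806% lower), 1 of 35, or 2.86%, had an unadjusted p under 0.05 against 25.1% of all genes, and DESeq2 called 1, in each case Stat2. The share of all genes called with DESeq2 is not given here. The median was -0.02 with 17 of 35 values above 0. Irf7, Oas3, Ifi27l2a and Bst2 were higher and Stat2 and Herc6 lower in every HAMSA library than in every NP library, 6 of 35 members where 16.4% of all genes did not overlap, 7.72% higher and 8.67% lower. For HAMSB no member passed where 0.0732% of all genes did, 8 of 35, or 22.9%, had an unadjusted p under 0.05, against 6.89% of all genes, and DESeq2 called 0. The median was 0.40 with 34 of 35 values above 0, and -0.01 with 17 of 35 above 0 without HAMSB 2. Among the 8 members with an unadjusted p under 0.05, the log2 fold change without HAMSB 2 was 0.35 ± 0.19 for Irf7. It was 0.19 ± 0.09 for Irf9, 0.52 ± 0.39 for Oas3, 0.21 ± 0.35 for Rtp4 and 0.15 ± 0.36 for Ifi27l2a. For Zbp1, Cmpk2 and Trim30a it was 0.15 ± 0.11, 0.22 ± 0.19 and 0.14 ± 0.13. Oas3 was the 1 member without overlap, where 5.27% of all genes had none, 2.21% higher and 3.06% lower.

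HAMS against NP asks what the plain starch does. Trim25 was higher and Stat2 lower in HAMS, 2 of 35 members where 4.33% of all genes were called, 2.27% higher and 2.06% lower. The median was 0.14 with 23 of 35 values above 0, and 0.02 without HAMS 1. Irf9, Oas3, Oasl1, Ifi27l2a, Trim25 and Sp100 were higher and Rsad2 and Stat2 lower in every HAMS library than in every NP library, 8 of 35 members where 12.6% of all genes did not overlap, 6.06% higher and 6.53% lower. A test for any difference among the 4 diets called Stat2 (edgeR adjusted p = 0.0073) and Trim25 (edgeR adjusted p = 0.0037), where 3.78% of all genes were called. Each diet stands in 3 of the 6 comparisons, which share its libraries, so their values are not independent.

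Other genes of the pathway were read from lists of 62 tested interferon response genes that are not members, 28 genes known from interferon gamma, 17 genes upstream of interferon and the 13 signalling genes. The first 2 lists share Gbp2, Gbp3, Gbp7, Tap1, Psmb8 and Psmb9. HAMSB 2 was the highest library for 29 of the 62 and 14 of the 28, but for 1 of the 17 upstream genes, against 6.28% of all genes tested, and its ratio to the other HAMSB libraries had a median of 1.28, 1.23 and 0.942 in those lists, against 2.22 in the members. In HAMSB against HAMS, 1 of the 62 was higher and none lower, none of the 28 passed, and 1 of the 17 was higher and 1 lower, where 0.433% of all genes were higher and 1.24% lower. In HAMSA against HAMSB, 2 of the 62 were lower, where 0.193% of all genes were, and none of the 28 or the 17 passed. In HAMSA against NP, 1 of the 62 and 1 of the 28 were lower, where 0.806% of all genes were. In HAMS against NP 2 of the 62 and 3 of the 28 were lower, where 2.06% of all genes were, and 1 of the 17 was higher, where 2.27% were. In HAMSA against HAMS and in HAMSB against NP no gene of these lists passed.

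Pml, the organizer of the nuclear bodies that hold Sp100, passed the test in the same 3 comparisons as Stat2. It was at 389.8, 359, 413 and 389 CPM in HAMSA libraries, 484, 522, 591 and 587 in HAMSB, 403, 372, 328 and 348 in HAMS and 419.7, 559, 544 and 507 in NP. Every HAMSB library lay above every HAMSA and HAMS library. Pml was higher in HAMSB than in HAMS, at a log2 fold change of 0.59 ± 0.11 (edgeR adjusted p = 0.0079), lower in HAMSA than in HAMSB, at a log2 fold change of -0.49 ± 0.11 (edgeR adjusted p = 0.044) and lower in HAMS than in NP, at a log2 fold change of -0.48 ± 0.11 (edgeR adjusted p = 0.018). Slfn8, of the Schlafen family, was lower in HAMSA than in HAMSB, at 81.1, 71.4, 69 and 94.6 CPM against 93.2, 145, 124 and 113 CPM, at a log2 fold change of -0.59 ± 0.13 (edgeR adjusted p = 0.048). Trim12c was lower in HAMSA than in NP, at 23.5, 19.6, 16.3 and 28 CPM against 36.4, 38.4, 40.1 and 38.5 CPM, at a log2 fold change of -0.81 ± 0.19 (edgeR adjusted p = 0.048).

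Every gene known from interferon gamma that passed the test, Gbp3, Gbp5 and Cd274, was lower in HAMS or HAMSA than in NP. Gbp5, a guanylate-binding protein, was at 43.9, 46.6, 34.7 and 49.8 CPM in HAMSA libraries, 53.4, 52.9, 55.9 and 55.4 in HAMSB, 38, 44, 46.5 and 41.6 in HAMS and 64.5, 57.4, 66.9 and 61.1 in NP. Every HAMSA, HAMSB and HAMS library lay below every NP library, at -0.51 ± 0.10 for HAMSA (edgeR adjusted p = 0.033) and -0.56 ± 0.10 for HAMS (edgeR adjusted p = 0.0062). In HAMS, Gbp3 at 51, 43.8, 42.2 and 39.7 CPM against 60.1, 58.3, 57.8 and 59.3 CPM in NP was lower, at a log2 fold change of -0.41 ± 0.09 (edgeR adjusted p = 0.015). Cd274, which encodes the checkpoint ligand PD-L1, was at 66.4, 56.3, 73.8 and 47.8 CPM in HAMS against 78.3, 86.6, 85.1 and 94.4 CPM in NP and lower, at a log2 fold change of -0.50 ± 0.13 (edgeR adjusted p = 0.036). Gbp9, with the smallest p of that list in HAMSA against HAMSB, gave -0.62 ± 0.19 (edgeR adjusted p = 0.14).

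Upstream of interferon, 2 adaptors moved in opposite directions between HAMSB and HAMS. Mavs, the mitochondrial adaptor on which RIG-I and MDA5 signal, was at 106, 85.5, 91.6 and 169 CPM in HAMSA libraries, 85.8, 75.4, 85.6 and 88.2 in HAMSB, 121, 176, 139 and 149.6 in HAMS and 99.2, 89.4, 91.6 and 98.4 in NP. HAMSA 6 lay within the HAMS range and the other HAMSA libraries below it. Mavs was lower in HAMSB than in HAMS, at a log2 fold change of -0.81 ± 0.17 (edgeR adjusted p = 0.022) and higher in HAMS than in NP, at a log2 fold change of 0.63 ± 0.17 (edgeR adjusted p = 0.049). Tmem173, the STING adaptor of DNA sensing, was at 158, 155, 192 and 158 CPM in HAMSA libraries, 196, 193, 186 and 212 in HAMSB, 148, 166, 111 and 129 in HAMS and 147, 177, 166 and 185 in NP. It was higher in HAMSB than in HAMS, at a log2 fold change of 0.51 ± 0.12 (edgeR adjusted p = 0.040). Rnaseh2c, a subunit of an RNase H, gave 0.59 ± 0.16 in HAMSA against HAMSB (edgeR adjusted p = 0.10).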

How the data were processed

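The authors deposited a table of raw read counts per gene for the 16 libraries and the counting summary, 1 count of reads for each assignment class and library. Per the submitters' processing notes the tools were STAR, featureCounts of Subread, edgeR and limma; versions, genome build and annotation are not given in the sources used here. Per the deposited counting summary, reads that mapped to several places or to overlapping genes were not counted, which lowers genes with near-identical copies, and NOD alleles can differ from the reference.

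Counts went into edgeR 4.0.16 (R 4.3.3). Of all genes 15021 passed filterByExpr, its minimum count set to 10; they were scaled by TMM and fitted with 1 mean per diet over 16 libraries (12 residual degrees of freedom, 22.1% variation between libraries). Each pair of diets was compared by the two-sided quasi-likelihood F-test, adjusted by Benjamini-Hochberg over all genes with 0.05 as the threshold. The SE is the absolute log2 fold change over the square root of F. CPM are scaled by TMM, and log2 CPM in the library score use a prior count of 2. The test was tested on simulated data. The smallest chi-square per gene between libraries of a diet was 10.4, where 1 is expected of one library deposited again, so all 16 were counted separately.

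The members and lists were chosen with earlier results of these data known. Members named with values in every library passed a test, were among the 3 smallest p of a comparison, the 5 highest levels per kb or the 5 highest ratios of top library to median. Of the other lists, genes past the threshold, those with the smallest p in HAMSB against HAMS or HAMSA against HAMSB, and Ifnar1 and Ifnar2 are named; 1 other gene under that rule is not reported here. Isg15 is given in full beyond that rule. Exon lengths come from GENCODE M21 (GRCm38), which may not be the authors' annotation. The alternatives were RLE scaling, library totals, no filter, 1 CPM in 4 libraries, DESeq2 1.42.0, limma 3.58.1 voom, a replicate block, reads outside exons (their share) as covariate, the 2 diets alone, groups of label numbers and leaving out each library; leaving out HAMSB 2 and HAMS 1 together was added after seeing the data.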

Additional observations from a re-analysis of the deposited data

Results flagged for a closer look

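Among 144 sets of 4 libraries (36 genes in 4 diets), 20 held a library that stood apart from the other 3 by Dixon's criterion, the gap to the nearest library over the whole range. The criterion has a nominal rate of about 1 in 20 such sets. The rate over all genes was not computed, and the 36 genes are not independent of each other. In 12 of the 20 the library was HAMSB 2, above the rest of its diet. These were Oas2 at 36.5 CPM, where the next HAMSB library had 5.82, Mx1 at 35.3 against 12.6, Oas1a at 24.3 against 2.87, Oas3 at 17.2 against 2.74 and Oasl2 at 22.9 against 6.56. Further ones were Ifi27l2a at 145 against 34.4, Dhx58 at 43.6 against 26.5, Eif2ak2 at 25.7 against 11.1, Rtp4 at 24.7 against 5.16, Rsad2 at 15.4 against 2.31, Usp18 at 14 against 3.69 and Ifi44 at 2.95 against 0.305 CPM. In 4 sets it was HAMS 1, with Oas2 at 21.8 CPM against 4.73 in the next HAMS library, Oas1a at 13.2 against 3.58, Oas3 at 7.04 against 2.49 and Ifi44 at 0.593 against 0.063.

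The other 4 were low values. Oas3 was at 1.49 CPM in NP 5, below 1.84 in the next NP library, and Xaf1 at 17.5 in NP 1, below 20.6. HAMSA 3, the shallowest library, had Ifih1 at 1.40 CPM, below 3.63 in the next HAMSA library, and Cmpk2 at 5.66, below 9.93.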

How the results depend on the processing

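With HAMSB 2 and HAMS 1 both left out, chosen after seeing the data, HAMSA against HAMSB had 0 called members and a median of 0.020, and Stat2 and Trim25 kept their calls in HAMSB against HAMS and HAMS against NP, where Oasl1 passed as well at 0.85 (edgeR adjusted p = 0.048). Called members of HAMSA against HAMS, HAMSA against HAMSB, HAMSA against NP and HAMS against NP were 2, 4, 1 and 4 with DESeq2. The shares of all genes called with DESeq2 are not given here, so these counts have no background of their own. Calls over all genes also varied, up to 103, 600, 2694 and 1264 over the alternatives in those comparisons. The counts of members alone thus do not set the members apart from other genes. HAMSA against NP had 1 with library totals in place of TMM. HAMSA against HAMSB had 0 without a filter, with the 2 diets alone and with a covariate for reads outside exons. With that covariate the median of HAMSA against NP was -0.54, and Bst2 turned to -0.31 there, against 0.52. Within numbers 1 to 4, called members were 1 in HAMSB against HAMS, 1 in HAMSA against HAMS, 0 in HAMSA against HAMSB and 1, Parp14, in HAMSA against NP. Within numbers 5 and 6, 1 member was called in HAMSB against HAMS. HAMSA 6 and NP 5 are the only libraries of their diets there, and the median of HAMSA against HAMSB was -0.0030. Fewer libraries enter the fits by number, and their shares of all genes called are not given here. No pairing by number was assumed, since the labels do not say what the numbers stand for. Deviations of same-numbered libraries correlated at -0.25 to 0.49 in 15 pairs and over 0.1 in 8. The highest was that of HAMSA 2 with HAMSB 2. Pairs with different numbers were not computed, so these values cannot decide whether the numbers pair the libraries. With the replicate number as a block, HAMSA against HAMSB had 0 called members and HAMS against NP 1, Trim25, and Stat2 was at -0.45 in HAMSA against HAMSB (edgeR adjusted p = 0.12) and at -0.38 in HAMS against NP (edgeR adjusted p = 0.080). With the 2 diets alone Stat2 missed the threshold in HAMS against NP, at -0.42 (edgeR adjusted p = 0.052). HAMSB against NP had 0 called members in each of 20 alternatives.

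Leaving out 1 library at a time gave 2 to 3 called members and medians of -0.061 to 0.50 in HAMSB against HAMS, 0 to 1 and -0.22 to 0.07 in HAMSA against HAMS, 0 to 2 and -0.54 to 0.020 in HAMSA against HAMSB, 0 to 1 and -0.09 to 0.10 in HAMSA against NP, 0 and -0.01 to 0.57 in HAMSB against NP, 1 to 2 and 0.02 to 0.20 in HAMS against NP, and 2 to 4 for any difference. The 2 calls added to any difference were Ddx58 and Parp14 without HAMSA 6 and Oasl1 and Rsad2 without HAMSB 2. Leaving out 1 library also moved the counts called over all genes. They were 127 to 240 in HAMSB against HAMS, where all 16 libraries gave 252, and 0 to 26 in HAMSA against HAMS, where these gave 0. They were 13 to 187 in HAMSA against HAMSB, where all libraries gave 117, and 0 to 589 in HAMSA against NP, where these gave 212. They were 0 to 14 in HAMSB against NP, where all libraries gave 11, and 235 to 703 in HAMS against NP, where these gave 650. The cause of these shifts was not tested. The median SE of the members' log2 fold changes was 0.29, and HAMSA values rest on the fewest reads.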
